A study of Saccharomyces cerevisiae with 18 samples.

Results

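The proteins of the cytosolic large ribosomal subunit, the 60S subunit, were followed at the level of their messenger RNAs in 6 strains of budding yeast that differ in Rad6, a ubiquitin-conjugating enzyme, or in its partner ligase Bre1. The 81 genes were taken from the deposited count table by name: every nuclear open reading frame whose standard name is RPL with a number and an optional A or B, and the stalk genes RPP0, RPP1A, RPP1B, RPP2A and RPP2B. They made up 81 of the 5746 genes in the table. Of these genes, 70 formed 35 pairs of related copies (A and B), and 11 had no second copy. All 81 passed the filter on low counts, which kept 5630 genes for testing.

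The large subunit joins amino acids in its peptidyl transferase centre, passes the new chain through an exit tunnel and recruits the translation factors through a flexible stalk. In yeast most of its proteins are encoded by a pair of genes, largely left from an ancient duplication of the genome. Ribosomal protein genes are transcribed together at very high rates in growing cells, under the DNA-binding protein Rap1 with Fhl1, Ifh1 and other factors, and their messages decline when nutrients run out or cells are stressed. Rad6 and Bre1 attach ubiquitin to histone H2B on transcribed genes, and Rad6 also acts with other ligases.

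The rad6Δ strain had the chromosomal RAD6 gene replaced by KanMX and carried the empty vector pRS314, a centromeric TRP1 plasmid. The bre1Δ strain had BRE1 replaced by KanMX, carried the same empty vector and kept its own untagged RAD6. The P43L, P47T and E49K strains had the chromosomal RAD6 replaced and carried a centromeric TRP1 plasmid that encoded Rad6 with a 3V5 tag and 1 amino acid changed, in the turn on the backside of the enzyme. The strain called WT was the same with an unchanged tagged RAD6, so the Rad6 of bre1Δ was chromosomal and untagged where that of WT was not. All strains carried ura3-52, leu2-3,112, his3 and trp1Δ and were grown at 30 °C in medium without tryptophan, which holds the plasmid. The protocols give the density at harvest in 2 different ways. The labels call the strains mating type a, yet the alpha-factor gene MF(ALPHA)1 stood at 1120 to 1960 CPM and the a-factor gene MFA1 at no more than 1.31 CPM in the 18 libraries. Each strain had 3 libraries from separate cultures, per the series design, so n = 3 in every group.

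Library totals ran from 5065845 to 11396251 counts. Levels are given as CPM, counts per 1000000 of the library total after TMM scaling, a factor that sets the bulk of genes level between libraries. RAD6 averaged 4.29 ± 0.51 CPM in rad6Δ, against 149 ± 6.82 CPM in WT, and BRE1 averaged 1.72 ± 0.44 CPM in bre1Δ, against 141 ± 5.67 CPM in WT (SD, n = 3 each). RAD6 stood at 101 ± 6.90 CPM in bre1Δ and between 127 and 175 CPM in the means of the 3 point mutants. Counts outside nuclear open reading frames took 18.1% to 26.0% of a library, with means of 24.2% in rad6Δ and 21.9% in bre1Δ, and 20.1% in P43L, 19.4% in P47T and 19.7% in E49K, against 21.8% in WT. The same 3 WT libraries enter each of the 5 comparisons with WT, which are thus not independent.

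How far the 2 copies of a pair can be told apart decides what their values mean. A pair whose copies differ more and a pair whose copies differ less are shown. The first 180 bases of the coding sequences of RPL9A and RPL9B follow, from the R64 genome at chrVII:228150-228329 (minus strand) and chrXIV:499681-499860 (plus strand), with the 9 bases that differ in capitals.
RPL9A: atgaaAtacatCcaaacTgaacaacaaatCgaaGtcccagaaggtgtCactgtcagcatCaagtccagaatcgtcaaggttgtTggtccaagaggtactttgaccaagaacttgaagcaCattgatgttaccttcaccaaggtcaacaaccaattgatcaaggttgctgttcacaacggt
RPL9B: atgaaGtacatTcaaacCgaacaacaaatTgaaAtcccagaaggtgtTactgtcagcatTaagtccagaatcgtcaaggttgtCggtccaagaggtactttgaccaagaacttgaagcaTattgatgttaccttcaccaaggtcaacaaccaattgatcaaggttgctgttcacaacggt
The whole coding sequences of RPL41A and RPL41B, 78 bases each, at chrIV:130407-130484 and chrIV:221724-221801 (both minus strand), differ at 1 base, in capitals.
RPL41A: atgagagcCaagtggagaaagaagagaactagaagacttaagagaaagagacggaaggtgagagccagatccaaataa
RPL41B: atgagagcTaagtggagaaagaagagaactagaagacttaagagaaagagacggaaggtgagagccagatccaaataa
Reads were 50 bases long. Of all 50-base windows in the coding exons, 86.0% occurred once in the genome for RPL9A and RPL9B, and 31.0% for RPL41A and RPL41B. The share was 39.1% for the RPL11 pair, 37.7% for the RPL7 pair and 27.3% for the RPL4 pair. It was lowest for the RPL1 pair, at 19.0%, and the RPL35 pair, at 18.7%. In other pairs, such as RPL22, it was 100.0%. In 63 of the 81 genes at least 80% of these windows occurred once. How reads that fit both copies were counted is not given in the sources used here. The split between the copies of RPL1, RPL4, RPL7, RPL11, RPL35 and RPL41 is thus uncertain. This also touches the RPL2, RPL14 and RPL42 pairs, where 71.5%, 51.4% and 51.5% of windows occurred once.

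The upstream windows of 2 pairs are shown because their copies moved differently in the mutants. Each window runs from position -460 to -161 before the start codon, on the strand of the gene, in R64. Capitals mark matches to a 10-letter form of the Rap1 motif with 2 free positions, searched on both strands. The windows lie at chrV:270346-270645 (RPL34A, minus strand), chrIX:257224-257523 (RPL34B, minus strand), chrVII:366157-366456 (RPL7A, minus strand) and chrXVI:172692-172991 (RPL7B, plus strand).
RPL34A: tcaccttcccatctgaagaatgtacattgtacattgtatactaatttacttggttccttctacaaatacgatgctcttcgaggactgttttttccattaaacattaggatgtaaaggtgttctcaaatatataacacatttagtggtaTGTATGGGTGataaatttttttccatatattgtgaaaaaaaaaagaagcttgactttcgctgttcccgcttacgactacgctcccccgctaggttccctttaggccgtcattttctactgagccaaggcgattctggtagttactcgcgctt
RPL34B: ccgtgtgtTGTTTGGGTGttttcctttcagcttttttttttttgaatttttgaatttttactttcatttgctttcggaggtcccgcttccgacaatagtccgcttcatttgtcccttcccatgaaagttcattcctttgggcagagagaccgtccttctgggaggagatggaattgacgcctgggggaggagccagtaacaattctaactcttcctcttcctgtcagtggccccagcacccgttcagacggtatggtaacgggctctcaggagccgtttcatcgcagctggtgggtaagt
RPL7A: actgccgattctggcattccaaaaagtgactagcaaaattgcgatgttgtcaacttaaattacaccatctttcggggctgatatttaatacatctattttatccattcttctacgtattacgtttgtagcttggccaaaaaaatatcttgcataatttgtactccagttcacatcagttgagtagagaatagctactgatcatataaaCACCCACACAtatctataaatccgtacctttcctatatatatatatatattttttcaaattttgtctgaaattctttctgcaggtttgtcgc
RPL7B: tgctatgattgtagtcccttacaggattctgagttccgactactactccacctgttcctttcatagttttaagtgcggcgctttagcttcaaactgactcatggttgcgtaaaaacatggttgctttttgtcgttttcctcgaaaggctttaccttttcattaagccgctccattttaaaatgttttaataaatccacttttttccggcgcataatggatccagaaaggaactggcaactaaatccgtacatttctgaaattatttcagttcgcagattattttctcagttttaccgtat
RPL34A, RPL34B and RPL7A each held 1 match, and RPL7B held none in this window or in its 500 upstream bases. A match is a run of letters and not a measured binding site, and the lack of a match does not show that a site is absent.

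As a group the 81 genes took the largest mean share of all counts in P47T and the smallest in rad6Δ. They summed to 63911, 58197 and 58837 CPM in the 3 rad6Δ libraries, 73732, 70197 and 86258 CPM in bre1Δ, and 66367, 65617 and 61575 CPM in P43L. They summed to 90366, 84110 and 85927 CPM in P47T and to 67539, 75084 and 71714 CPM in E49K, against 63403, 65122 and 62695 CPM in WT. All P47T, bre1Δ and E49K libraries lay above all WT libraries, while rad6Δ and P43L libraries overlapped with WT. The share of all counts was 6.17% ± 0.09 in rad6Δ and 7.35% ± 0.34 in bre1Δ, and 6.51% ± 0.21 in P43L, 8.34% ± 0.13 in P47T and 7.17% ± 0.13 in E49K, against 6.64% ± 0.11 in WT (SD, n = 3 each). Of open reading frame counts alone, the share was 8.14% ± 0.27 in rad6Δ and 8.16% ± 0.41 in P43L, level by that measure. CPM is a share, so more of these messages and less of other RNA cannot be told apart. The summed level of large over small subunit genes stayed between 1.12 and 1.14 in the means of all 6 strains.

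**Figure D1:**
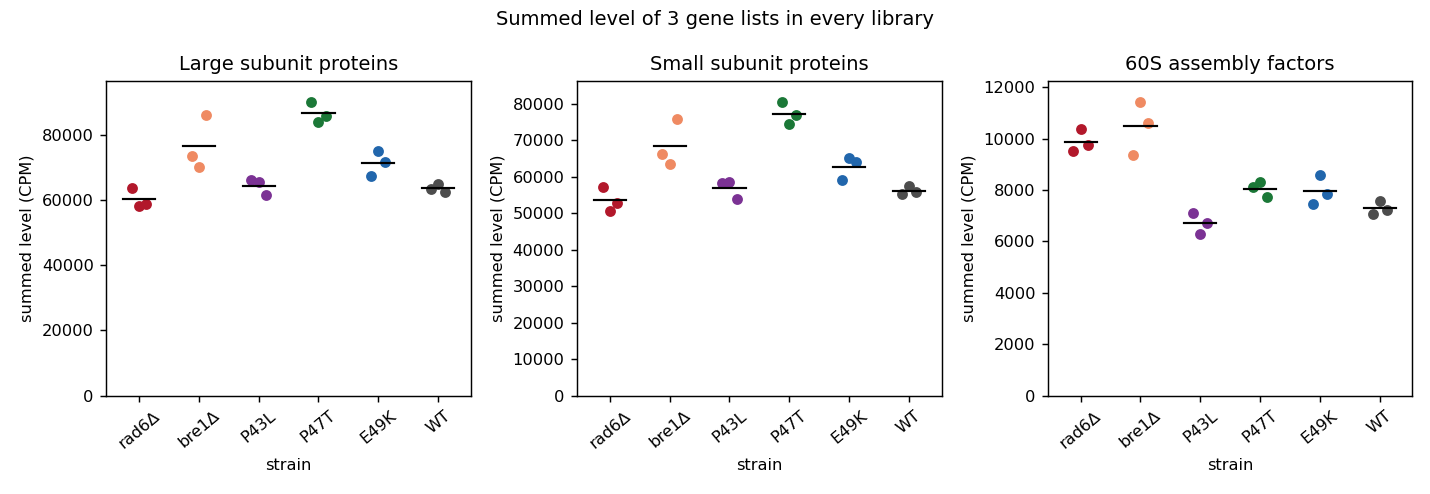
Summed level (CPM, from 0) of the 81 large subunit genes, the 57 small subunit genes and the 75 genes of 60S assembly in each library (points), with strain means (lines). P47T libraries sit at 84110 to 90366 CPM for the large subunit, against 62695 to 65122 CPM in WT, while the assembly genes are highest in bre1Δ and rad6Δ.

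Single genes were tested with edgeR's quasi-likelihood test, with Benjamini-Hochberg adjustment over all 5630 genes and a threshold of 0.05. P47T raised 61 of the 81 genes and lowered none, where 14.2% of all genes tested rose and 13.7% fell. The bre1Δ strain raised 44 and lowered none, against 22.3% of all genes rising and 22.1% falling. Beside these counts of 0, edgeR at an unadjusted p under 0.05 had 1 gene lower in P47T and 0 in bre1Δ, and DESeq2 called 0 in both. E49K raised 19 and lowered 3, against a background of 15.2% and 16.1%. In rad6Δ 23 genes (28.4%) were lower, close to the 24.8% of all genes that fell, while 2 (2.47%) were higher, against 24.8% of all genes that rose. P43L had 2 higher (2.47%) and 11 lower (13.6%), against 5.95% and 6.18%.

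These changes were modest. The median log2 fold change over the 81 genes was -0.08 in rad6Δ and 0.27 in bre1Δ, and -0.03 in P43L, 0.43 in P47T and 0.13 in E49K. Over all genes tested the median was 0.00 in rad6Δ and 0.00 in bre1Δ, and -0.02 in P43L, -0.01 in P47T and -0.01 in E49K. No gene of the set reached a 2-fold difference in any comparison, and the largest was RPL35A in P47T, at 0.97 ± 0.21 on the log2 scale. In P47T, 79 of the 81 fold changes were above 0, and in bre1Δ 75 were, while in rad6Δ 60 were below 0. The signs in P43L were mixed, with 37 above and 44 below 0.

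The bre1Δ and E49K counts leaned on single libraries. Without bre1Δ replicate 3, whose summed level was the highest of its strain, 20 genes rose in bre1Δ in place of 44. Of all genes tested, 1011 rose in that fit. The E49K count of higher genes was 8 without WT replicate 3, when 597 of all genes tested rose. The share of the set that rose in E49K was then about that of all genes. Without WT replicate 2 none of the 3 lower calls was left, while 640 of all genes fell. The P43L count of lower genes was 5 without WT replicate 2, with 96 of all genes lower. With library totals in place of TMM scaling, 23 genes rose in bre1Δ and 49 in P47T. Among the called values of named genes (chosen as described under data processing), those of RPL30, RPL40B, RPP0 and RPP2B in bre1Δ were lost. Those of RPL32 and RPL5 in P47T were lost as well. The median over the 81 genes was then 0.14 in bre1Δ, -0.07 in P43L and 0.07 in E49K. That choice moved the split of all genes from even to lopsided, with 734 higher and 1699 lower in bre1Δ and 407 higher and 1297 lower in P47T, against 1257 and 1244, and 799 and 770, with TMM. With open reading frames alone, 7 genes rose and 11 fell in P43L, and DESeq2 called 9 higher and 14 lower there.

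**Figure D2:**
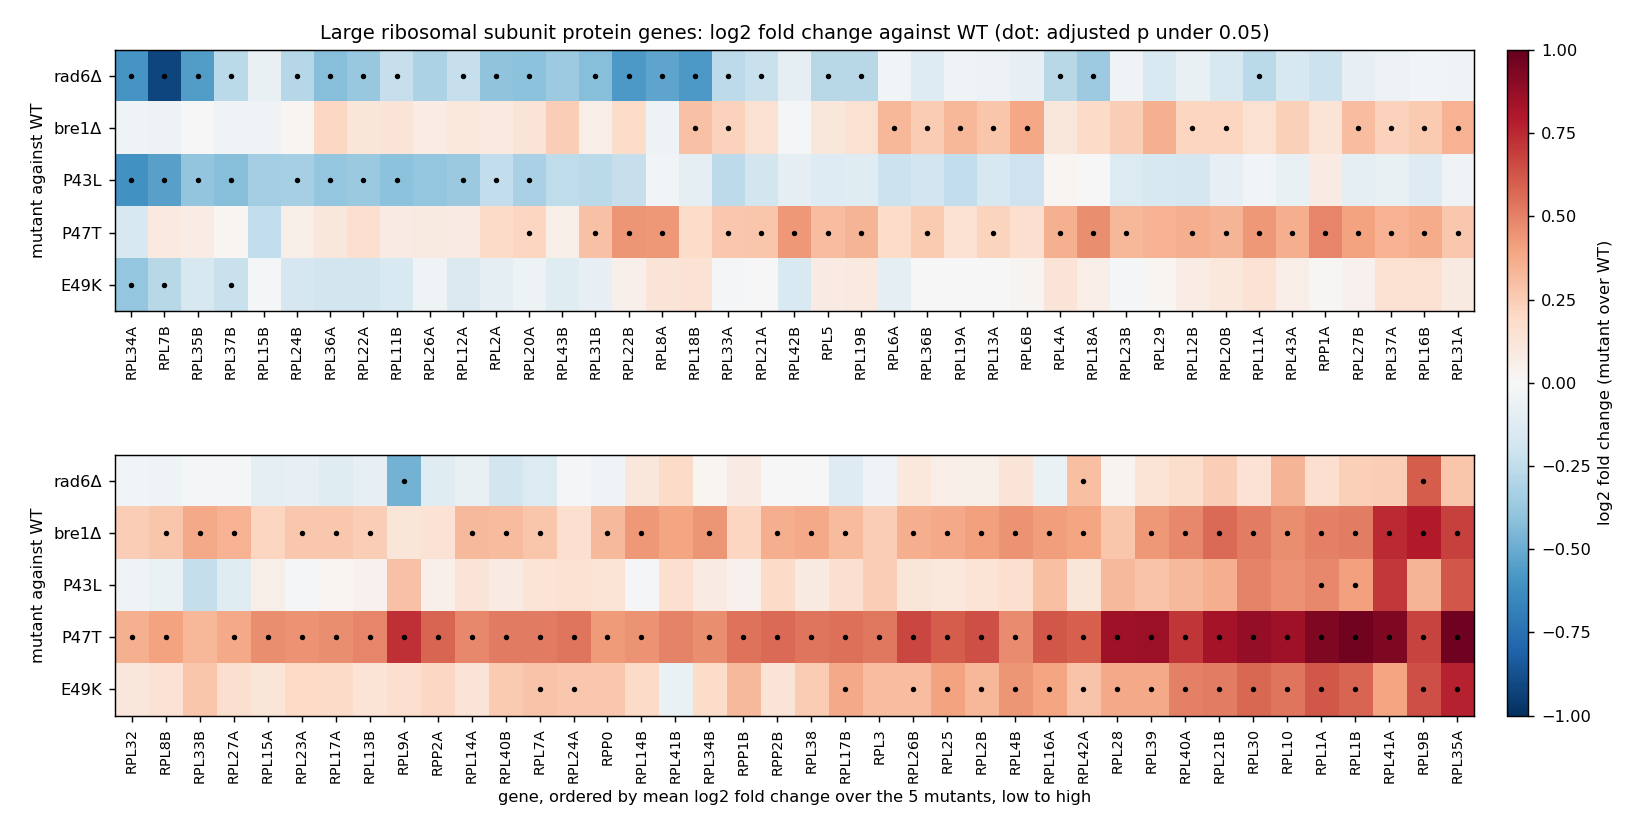
Log2 fold change of each of the 81 genes in each mutant over WT (colour, from -1 to 1), ordered by the mean over the 5 mutants, with a dot where the adjusted p was under 0.05. The P47T row is red across nearly the whole set with 61 dots, the rad6Δ row carries 23 dots on blue, mostly at the low end, and RPL1A, RPL1B, RPL9B and RPL42A each have 4 dots on red.

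Over the 5 comparisons with WT, 5 genes passed the test in none (RPL15B, RPL26A, RPL29, RPL41B and RPL43B). RPL1A, RPL1B, RPL42A and RPL9B rose in 4 comparisons each, and RPL34A, RPL37B and RPL7B fell in 3 each. Another 12 genes rose in at least 1 mutant and fell in 1, and RPL20A rose in 1 and fell in 2. The genes named by these counts were picked after their values were seen. How many of all genes tested had such patterns was not counted. The 5 comparisons share their WT libraries, so calls that recur are not independent.

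The stalk is the arm of the subunit that draws in the GTPase translation factors. RPP0, its base, encodes the protein that holds the stalk on the ribosomal RNA, and RPP1A, RPP1B, RPP2A and RPP2B encode the acidic proteins that hang from it. All 5 stalk genes rose in P47T, by 0.43 to 0.58 on the log2 scale. In bre1Δ 2 rose, RPP0 and RPP2B. Of all genes tested, 14.2% rose in P47T and 22.3% in bre1Δ. The stalk fold changes ran from -0.21 to 0.09 in rad6Δ (lowest adjusted p = 0.21), from 0.04 to 0.19 in P43L (lowest adjusted p = 0.264) and from 0.01 to 0.32 in E49K (lowest adjusted p = 0.0574), so no stalk gene passed the edgeR test there. At an unadjusted p under 0.05 edgeR had 0 in rad6Δ, 0 in P43L and 2 in E49K.

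RPP0 stood at 2365, 2078 and 2167 CPM in rad6Δ, 2602, 2480 and 3380 CPM in bre1Δ, 2633, 2293 and 2501 CPM in P43L, 3066, 3111 and 2930 CPM in P47T and 2557, 3048 and 2551 CPM in E49K, against 2094, 2470 and 2199 CPM in WT. The P47T and bre1Δ libraries all lay above WT, by little in bre1Δ replicate 2. RPP0 rose by 0.43 ± 0.12 in P47T (adjusted p = 0.00977) and by 0.32 ± 0.12 in bre1Δ (adjusted p = 0.0292). The bre1Δ call was lost without bre1Δ replicate 3 (adjusted p = 0.21), and also without WT replicate 1 or 3. RPP2B rose by 0.36 ± 0.11 in bre1Δ (adjusted p = 0.0142), a call lost without bre1Δ replicate 3, and by 0.57 ± 0.11 in P47T (adjusted p = 0.00114). RPP2A had the largest stalk difference in P47T, with 624, 538 and 641 CPM, against 428, 414 and 363 CPM in WT, a rise of 0.58 ± 0.12 (adjusted p = 0.00132). RPP1A, at 1141, 1066 and 1387 CPM in P47T and 842, 911 and 809 CPM in WT, rose by 0.49 ± 0.14 (adjusted p = 0.0127), a call lost without P47T replicate 3 or WT replicate 3 (adjusted p = 0.0597 and 0.0522).

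The 11 genes without a second copy include several at the functional centres of the subunit, and their reads cannot be shared with a partner. In P47T 10 of the 11 rose, in bre1Δ 6 and in E49K 5, where 14.2%, 22.3% and 15.2% of all genes tested rose. In rad6Δ RPL5 alone passed, as lower. In P43L RPL10 had the lowest adjusted p, 0.0573, and 4 of the 11 were under an unadjusted 0.05. Their median log2 fold change was 0.01 in rad6Δ and 0.35 in bre1Δ, and 0.14 in P43L, 0.53 in P47T and 0.31 in E49K.

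RPL10 encodes the protein that completes the catalytic centre late in assembly. It stood at 3082, 2438 and 2366 CPM in rad6Δ, 2249, 2622 and 3719 CPM in bre1Δ, 3225, 2462 and 2832 CPM in P43L, 4240, 3746 and 3203 CPM in P47T and 2745, 3098 and 3180 CPM in E49K, against 2107, 2138 and 1973 CPM in WT. Every mutant library lay above every WT library. RPL10 rose by 0.85 ± 0.16 in P47T (adjusted p = 0.00055), by 0.54 ± 0.15 in E49K (adjusted p = 0.0124) and by 0.47 ± 0.15 in bre1Δ (adjusted p = 0.0189). The bre1Δ call was lost without bre1Δ replicate 3 or WT replicate 3 (adjusted p = 0.19 and 0.0685). The differences in P43L (0.45 ± 0.15, adjusted p = 0.0573) and rad6Δ (0.34 ± 0.15, adjusted p = 0.0707) did not pass.

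RPL30 encodes a protein known to bind and hold back the splicing of its own transcript. It stood at 503, 442 and 349 CPM in rad6Δ, 430, 497 and 738 CPM in bre1Δ, 624, 496 and 525 CPM in P43L, 857, 716 and 580 CPM in P47T and 498, 627 and 618 CPM in E49K, against 407, 382 and 380 CPM in WT. The spread within bre1Δ and P47T was wide, and the rad6Δ libraries straddled WT. RPL30 rose by 0.88 ± 0.18 in P47T (adjusted p = 0.00229). It also rose by 0.58 ± 0.18 in E49K (adjusted p = 0.0244) and by 0.51 ± 0.18 in bre1Δ (adjusted p = 0.0327), but 4 single libraries each undid either call when left out, the bre1Δ one most without bre1Δ replicate 3 (adjusted p = 0.223).

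RPL28, in which mutations are known to give resistance to cycloheximide, stood at 2351, 1895 and 1792 CPM in P47T, against 1239, 1077 and 1045 CPM in WT, with no overlap. It rose by 0.85 ± 0.14 in P47T (adjusted p = 0.000252) and by 0.38 ± 0.14 in E49K (adjusted p = 0.046), the second a call lost without any of 4 libraries. RPL25, whose protein sits at the mouth of the exit tunnel, rose by 0.61 ± 0.12 in P47T (adjusted p = 0.00081), by 0.40 ± 0.12 in E49K (adjusted p = 0.0127) and by 0.38 ± 0.12 in bre1Δ (adjusted p = 0.0117). The E49K call was lost without WT replicate 2 or E49K replicate 3, and the bre1Δ call without WT replicate 2 or bre1Δ replicate 3. RPL3, which encodes a protein close to the catalytic centre, rose in P47T alone, by 0.53 ± 0.12 (adjusted p = 0.00337). RPL32 rose in P47T by 0.35 ± 0.10 (adjusted p = 0.0148), a call lost without WT replicate 3 or P47T replicate 3.

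RPL5 encodes the protein that carries the small 5S ribosomal RNA into the subunit. It stood at 2036, 2025 and 1919 CPM in rad6Δ, 2716, 2338 and 2759 CPM in bre1Δ, 2186, 2269 and 2174 CPM in P43L, 3007, 2867 and 3099 CPM in P47T and 2461, 2854 and 2325 CPM in E49K, against 2459, 2437 and 2336 CPM in WT. The rad6Δ and P43L libraries lay below all WT libraries and the P47T libraries above them. RPL5 fell by 0.27 ± 0.10 in rad6Δ (log2, adjusted p = 0.0219) and rose by 0.31 ± 0.10 in P47T (adjusted p = 0.0205). The rad6Δ call was lost without WT replicate 2 or rad6Δ replicate 3, and the P47T call without WT replicate 2 or 3 or P47T replicate 1 or 3.

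**Figure D3:**
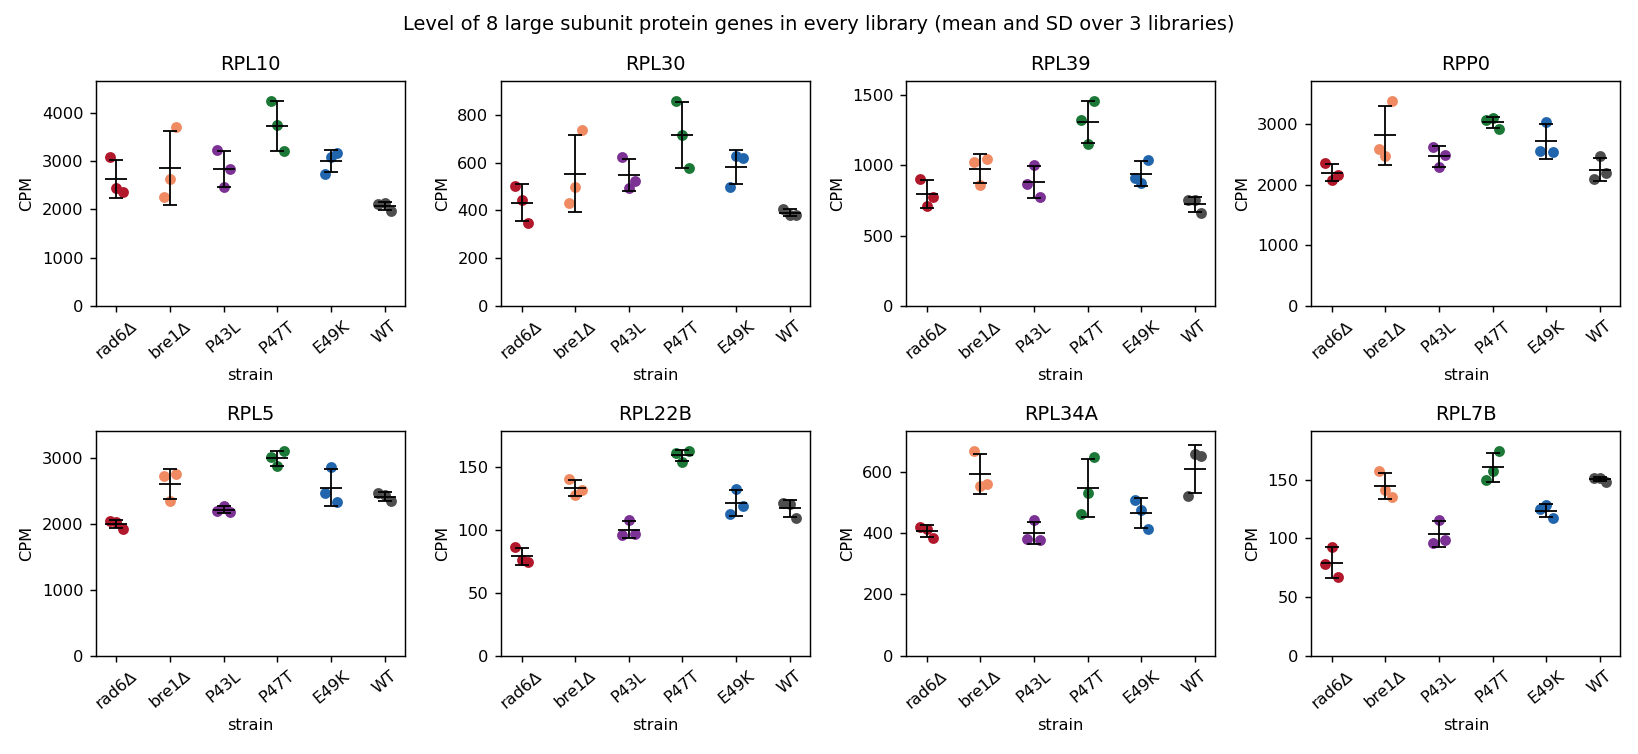
Level (CPM, from 0) of 8 large subunit genes in each library (points, left to right replicates 1 to 3), with mean and SD per strain (n = 3). RPL10, RPL30, RPL39 and RPP0 are highest in P47T, while RPL22B, RPL34A and RPL7B are lowest in rad6Δ or P43L; RPL34A is the one of the 8 whose P47T mean, 548 CPM, lies below its WT mean of 613 CPM.

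RPL40A and RPL40B encode the same ribosomal protein fused to ubiquitin, the small protein that Rad6 attaches to its targets, so both are also sources of ubiquitin. RPL40A stood at 1104, 936 and 955 CPM in rad6Δ, 1168, 1079 and 1447 CPM in bre1Δ, 1114, 1174 and 1034 CPM in P43L, 1635, 1384 and 1324 CPM in P47T and 1185, 1259 and 1317 CPM in E49K, against 941, 852 and 855 CPM in WT. All bre1Δ, P43L, P47T and E49K libraries lay above WT. RPL40A rose by 0.71 ± 0.11 in P47T (adjusted p = 0.000119), 0.51 ± 0.11 in E49K (adjusted p = 0.00171) and 0.48 ± 0.11 in bre1Δ (adjusted p = 0.00135), and missed the threshold in P43L (0.33 ± 0.11, adjusted p = 0.0533). RPL40B rose by 0.52 ± 0.10 in P47T (adjusted p = 0.00108) and by 0.32 ± 0.10 in bre1Δ (adjusted p = 0.0168), the second a call lost without bre1Δ replicate 3 or WT replicate 3.

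RPL22A and RPL22B encode a protein dispensable for growth that is known to restrain the splicing of RPL22B. RPL22B stood at 86.6, 75.6 and 74.1 CPM in rad6Δ, 140, 127 and 132 CPM in bre1Δ, 95.5, 108 and 96.3 CPM in P43L, 161, 154 and 162 CPM in P47T and 113, 133 and 119 CPM in E49K, against 121, 120 and 109 CPM in WT. The rad6Δ and P43L libraries lay below WT, and the bre1Δ and P47T libraries above. RPL22B fell by 0.57 ± 0.08 in rad6Δ (adjusted p = 5.12e-06) and rose by 0.44 ± 0.08 in P47T (adjusted p = 0.000386). RPL22A fell by 0.38 ± 0.09 in rad6Δ (adjusted p = 0.00173) and by 0.37 ± 0.09 in P43L (adjusted p = 0.0136), the second a call lost without WT replicate 2 or 3 or P43L replicate 1 or 3.

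RPL39 and the RPL41 pair encode the shortest proteins of the subunit, RPL39 a piece of the tunnel wall. RPL39 stood at 903, 711 and 773 CPM in rad6Δ, 1026, 859 and 1046 CPM in bre1Δ, 870, 1000.0 and 776 CPM in P43L, 1321, 1152 and 1455 CPM in P47T and 910, 875 and 1041 CPM in E49K, against 754, 754 and 661 CPM in WT. All bre1Δ, P43L, P47T and E49K libraries lay above WT, and rad6Δ overlapped with it. RPL39 rose by 0.86 ± 0.12 in P47T (adjusted p = 4.08e-05), 0.43 ± 0.12 in bre1Δ (adjusted p = 0.00502) and 0.38 ± 0.12 in E49K (adjusted p = 0.0177), the last a call lost without WT replicate 3 or E49K replicate 3. RPL41A rose by 0.93 ± 0.24 in P47T (adjusted p = 0.0116) and by 0.75 ± 0.24 in bre1Δ (adjusted p = 0.0222). The P47T call was lost without P47T replicate 1 (adjusted p = 0.0545) and the bre1Δ call without bre1Δ replicate 3 (adjusted p = 0.121) or WT replicate 2 or 3. RPL41B, with values from 376 to 831 CPM in the 18 libraries, passed in no comparison with WT.

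RPL1A and RPL1B rose in all mutants but rad6Δ. They encode the protein of the mobile stalk at the exit site for transfer RNA, and their coding sequences are 99.4% identical. RPL1A stood at 432, 365 and 403 CPM in rad6Δ, 449, 456 and 614 CPM in bre1Δ, 516, 504 and 469 CPM in P43L, 715, 638 and 684 CPM in P47T and 488, 590 and 561 CPM in E49K, against 389, 350 and 327 CPM in WT. All libraries of bre1Δ and the 3 point mutants lay above WT. RPL1A rose by 0.93 ± 0.11 in P47T (adjusted p = 1.05e-05), 0.62 ± 0.11 in E49K (adjusted p = 0.000326), 0.51 ± 0.11 in bre1Δ (adjusted p = 0.000845) and 0.48 ± 0.11 in P43L (adjusted p = 0.00865). RPL1B rose by 0.96 ± 0.13 in P47T (adjusted p = 5.17e-05), 0.58 ± 0.13 in E49K, 0.51 ± 0.13 in bre1Δ and 0.41 ± 0.13 in P43L (adjusted p = 0.0027, 0.00405 and 0.0469). The P43L call of RPL1B was lost without any of 5 libraries, P43L replicate 2 being the exception, and its bre1Δ rise was 0.29 without bre1Δ replicate 3. These 2 were the genes that rose in P43L.

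RPL9B was raised in rad6Δ, where most of the set was not. It stood at 513, 440 and 415 CPM in rad6Δ, 394, 494 and 670 CPM in bre1Δ, 431, 341 and 366 CPM in P43L, 562, 511 and 360 CPM in P47T and 417, 483 and 511 CPM in E49K, against 311, 309 and 280 CPM in WT. Every mutant library lay above every WT library. RPL9B rose by 0.60 ± 0.17 in rad6Δ (adjusted p = 0.00759), 0.79 ± 0.17 in bre1Δ (adjusted p = 0.00148), 0.67 ± 0.17 in P47T (adjusted p = 0.00857) and 0.65 ± 0.17 in E49K (adjusted p = 0.00935), calls that each held in rad6Δ, bre1Δ and E49K whichever library was left out. Its partner RPL9A fell by 0.47 ± 0.13 in rad6Δ (adjusted p = 0.00659) and rose by 0.73 ± 0.13 in P47T (adjusted p = 0.000631). The other gene raised in rad6Δ was RPL42A, at 566, 524 and 546 CPM in rad6Δ, against 428, 485 and 414 CPM in WT, a rise of 0.30 ± 0.08 (adjusted p = 0.00471). Of the RPL42A windows 51.5% occurred once in the genome.

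RPL35A, whose protein lies beside the tunnel mouth, had the largest fold change in P47T, with 343, 286 and 233 CPM, against 173, 130 and 135 CPM in WT (0.97 ± 0.21, adjusted p = 0.00468). It also rose by 0.77 ± 0.21 in E49K (adjusted p = 0.0149), a call lost without WT replicate 2 or 3 or E49K replicate 3. In bre1Δ it rose by 0.69 ± 0.22 (adjusted p = 0.0191), a call lost without bre1Δ replicate 3 (adjusted p = 0.0884) or WT replicate 2 or 3. RPL21B was among the 5 most raised genes in bre1Δ, at 596, 675 and 937 CPM, against 561, 476 and 455 CPM in WT. It rose there by 0.56 ± 0.13 (adjusted p = 0.00161), and by 0.35 without bre1Δ replicate 3.

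The 5 genes lowered most in rad6Δ were RPL7B, RPL34A, RPL18B, RPL22B and RPL35B. Each is 1 copy of a pair, as are all but 11 of the 81 genes. The split of RPL7B and RPL35B from their partners is uncertain, as 37.7% and 18.7% of their windows occurred once. RPL7B stood at 78.5, 92.8 and 66.7 CPM in rad6Δ, 157, 141 and 136 CPM in bre1Δ, 95.7, 116 and 98.8 CPM in P43L, 150, 158 and 174 CPM in P47T and 125, 128 and 118 CPM in E49K, against 151, 151 and 148 CPM in WT. The rad6Δ, P43L and E49K libraries all lay below WT, and bre1Δ and P47T overlapped with it. RPL7B fell by 0.91 ± 0.10 in rad6Δ (adjusted p = 1.74e-07), 0.54 ± 0.10 in P43L (adjusted p = 0.00224) and 0.28 ± 0.10 in E49K (adjusted p = 0.0302), the last a call lost without any 1 of the 6 libraries. Introns of RPL7A and RPL7B hold the small nucleolar RNAs SNR39 and SNR59, which overlap with them on the same strand.

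RPL34A stood at 421, 415 and 385 CPM in rad6Δ, 670, 554 and 562 CPM in bre1Δ, 383, 444 and 378 CPM in P43L, 463, 532 and 651 CPM in P47T and 510, 477 and 415 CPM in E49K, against 522, 661 and 655 CPM in WT. The rad6Δ, P43L and E49K libraries again lay below WT without overlap. RPL34A fell by 0.59 ± 0.12 in rad6Δ (adjusted p = 0.00036), 0.61 ± 0.12 in P43L (adjusted p = 0.004) and 0.39 ± 0.12 in E49K (adjusted p = 0.0168), the last a call lost without WT replicate 2 or 3 or E49K replicate 3. Of its windows 96.4% occurred once in the genome, so few reads can come from RPL34B. RPL37B fell in the same 3 strains, by 0.27 ± 0.08 in rad6Δ, 0.43 ± 0.08 in P43L and 0.22 ± 0.08 in E49K (adjusted p = 0.00981, 0.0037 and 0.0432), the E49K call being lost without any 1 of the 6 libraries.

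RPL18B and RPL35B completed the 5 most lowered in rad6Δ. RPL18B stood at 108, 102 and 93.0 CPM in rad6Δ, against 146, 160 and 144 CPM in WT, a fall of 0.57 ± 0.09 on the log2 scale (adjusted p = 3.42e-05). RPL35B stood at 121, 111 and 131 CPM in rad6Δ and 129, 143 and 133 CPM in P43L, against 184, 171 and 177 CPM in WT. It fell by 0.56 ± 0.08 in rad6Δ (adjusted p = 9.01e-06) and by 0.39 ± 0.08 in P43L (adjusted p = 0.00492). RPL11B, one of 2 genes for the protein that enters the subunit together with Rpl5, fell by 0.41 ± 0.08 in P43L (adjusted p = 0.00399). Of the RPL11B windows 39.1% occurred once in the genome, so its split from RPL11A is uncertain.

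Within pairs, the share of the A copy needs no scaling between libraries. The 6 pairs with the largest shifts were chosen after their values were seen, so they are described only. Exact permutation tests of 3 against 3 libraries cannot give a p below 0.1, so no shift could reach 0.05. The log2 ratio of A to B moved by more than 0.5 in 4 of the 35 pairs in rad6Δ and 2 in bre1Δ, and 6 in P43L, 5 in P47T and 4 in E49K. Mutant and WT ratios did not overlap in 19 of the 35 pairs in rad6Δ and 9 in bre1Δ. The same held for 16 pairs in P43L, 19 in P47T and 18 in E49K.

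RPL9A held 57.9%, 56.1% and 56.3% of the counts of its pair in rad6Δ, 65.0%, 63.4% and 62.7% in bre1Δ, 72.3%, 73.2% and 73.4% in P43L, 73.3%, 72.5% and 77.5% in P47T and 66.4%, 66.2% and 67.0% in E49K, against 72.7%, 72.9% and 75.0% in WT. The rad6Δ, bre1Δ and E49K libraries lay wholly below WT, in that order, and P43L and P47T overlapped with it. The shift of the log2 ratio was -1.08 in rad6Δ, -0.66 in bre1Δ and -0.48 in E49K, with replicate SDs of 0.02 to 0.10. Leaving out any 1 library kept the rad6Δ shift between -1.11 and -1.02.

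The RPL34, RPL7, RPL35 and RPL26 pairs set all or most mutants apart from WT on the same side. This was not particular to them, as the RPL2, RPL37 and RPL40 pairs did so in every mutant, with smaller shifts. The bre1Δ libraries overlapped with WT in the RPL7, RPL35 and RPL26 pairs. RPL34A held 45.0% ± 0.77 of its pair in rad6Δ and 47.03% ± 2.97 in bre1Δ, and 43.4% ± 2.40 in P43L, 44.4% ± 4.13 in P47T and 45.4% ± 3.99 in E49K, against 55.2% ± 2.41 in WT (SD, n = 3 each). RPL7A held 85.2% ± 0.92 in rad6Δ and 80.7% ± 2.44 in bre1Δ, and 84.2% ± 1.35 in P43L, 81.8% ± 1.48 in P47T and 83.1% ± 0.84 in E49K, against 76.8% ± 2.27 in WT. RPL35A held 59.4% in rad6Δ and 56.1% in bre1Δ, and 62.4% in P43L, 60.3% in P47T and 60.8% in E49K, against 44.9% in WT, with a spread of 47.01% to 66.1% within bre1Δ. WT is the common reference of these shifts, so its 3 libraries enter each of them. RPL15A held 98.4% to 99.1% of its pair in the mean of every strain, RPL15B standing at 27.6 to 42.4 CPM in the 18 libraries. The RPL15A shares of P43L and P47T lay above WT, and those of the other mutants overlapped with it. RPL26A held 29.2% in rad6Δ and 31.1% in bre1Δ, and 27.7% in P43L, 26.8% in P47T and 30.1% in E49K, against 35.4% in WT.

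**Figure D4:**
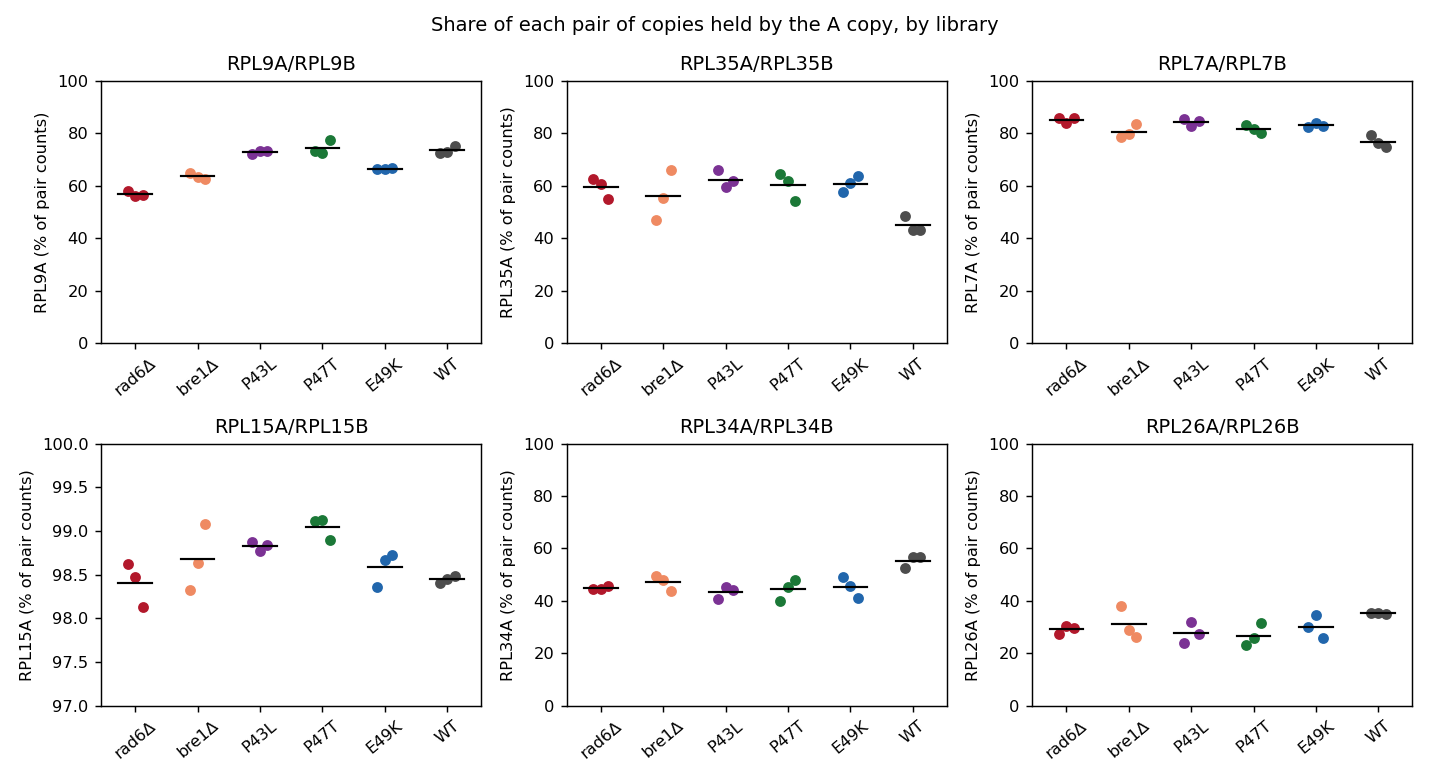
Share of the A copy (percent of the counts of the pair) in each library (points) with strain means (lines) for the 6 pairs with the largest shifts. Axes run from 0 to 100%, except for RPL15A/RPL15B, which runs from 97% to 100%; RPL9A falls to 56.8% in rad6Δ, against 73.5% in WT, and RPL34A lies at 43.4% to 47.03% in the mutant means, against 55.2% in WT.

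Levels between genes were compared per kilobase of coding sequence, over all 18 libraries. RPL41B, RPL39, RPL41A and RPL38 stood highest, at 7376, 6014, 5673 and 4976 CPM per kb, and RPL15B, RPL7B and RPL4B lowest, at 56.2, 173 and 210 CPM per kb. Coding length leaves out untranslated regions, which inflates this value most for RPL41 with its 78 coding bases. Windows that occurred once made up 37.7% for RPL7B, 27.3% for RPL4B and 31.0% for RPL41A and RPL41B. How reads that fit both copies were counted is not known, so the places of such genes in this order are uncertain. The 40 genes in the upper part of this order had a median log2 fold change of 0.37 in P47T and the 41 in the lower part 0.45. In rad6Δ these medians were -0.05 and -0.09.

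Splicing is heavily loaded by these genes, 53 of which contain an intron. The 53 had a median log2 fold change of -0.09 in rad6Δ and 0.27 in bre1Δ, and -0.09 in P43L, 0.37 in P47T and 0.11 in E49K. The 28 without an intron had -0.06, 0.23, 0.07, 0.47 and 0.14 in the same order. In P47T 39 of 53 genes with an intron rose and 22 of 28 without one. A copies and B copies were alike in count, with 27 of 35 A copies and 24 of 35 B copies higher in P47T, and 13 and 9 lower in rad6Δ. Beside these counts, 14.2% of all genes tested rose in P47T and 24.8% fell in rad6Δ. The difference between these classes was not tested.

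The Rap1 motif, in the form marked above in the RPL34 windows, occurred within 500 bases upstream of 18 of the 81 genes (22.2%), in 19.3% of small subunit genes, in 4.0% of the 60S assembly genes and in 2.23% of all 5602 nuclear open reading frames. Of the 19 matches in the set, 18 lay between 450 and 150 bases before the start codon, with a median position of -332. The assembly genes instead carried the letters GATGAG (PAC motif) in 85.3% and AAAATTTT (RRPE motif) in 74.7% of windows, where the 81 genes had them in 22.2% and 16.1% and all open reading frames in 28.0% and 12.9%. A form of the Abf1 motif occurred upstream of 14.8% of the 81 genes and 23.3% of all. In P47T 14 of the 18 genes with the Rap1 motif rose and 47 of the 63 without it, with medians of 0.43 in both. In rad6Δ 6 of 18 and 17 of 63 fell. Of all genes tested, 14.2% rose in P47T and 24.8% fell in rad6Δ.

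The mutants also differed from one another. P47T exceeded P43L in 70 of the 81 genes and lay below it in none (16.3% and 14.7% of all genes), with a median of 0.45 and all 81 fold changes above 0. RPL22B differed most between them, with 161, 154 and 162 CPM in P47T and 95.5, 108 and 96.3 CPM in P43L (0.67 ± 0.08, adjusted p = 4.79e-06). RPL7B followed at 0.63 ± 0.10 (adjusted p = 8.08e-05). E49K lay below P47T in 34 genes and above it in none (9.41% and 8.35% of all genes), with a median of -0.27. Against P43L, E49K was higher in 10 genes (12.3%), about the share of all genes called higher (13%), and lower in none (12.4% of all genes), with a median of 0.17. DESeq2 called 21 higher there. The count of 34 below P47T was 7 without E49K replicate 1, and the count of 10 above P43L was 1 without P43L replicate 3. Of all genes, 279 lay below P47T and 491 above P43L in these fits. RPL9A differed between E49K and P47T by -0.56 ± 0.13 (adjusted p = 0.00678).

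The 2 null strains were set apart by this set as well. The rad6Δ strain lay below bre1Δ in 55 of the 81 genes and above it in none, where 11.9% and 8.92% of all genes did, and all 81 fold changes were below 0, with a median of -0.37. RPL18B differed most, at 108, 102 and 93.0 CPM in rad6Δ and 186, 168 and 201 CPM in bre1Δ (-0.87 ± 0.09, adjusted p = 1.11e-06), with RPL7B next (-0.86 ± 0.10, adjusted p = 2.69e-06). DESeq2 and edgeR at an unadjusted p under 0.05 also had 0 genes above in rad6Δ, and 0 below in P47T against P43L and in E49K against P43L. In E49K against P47T, 1 gene was above at an unadjusted p under 0.05 in edgeR and 0 by DESeq2.

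Of 9 regulators of ribosomal protein genes, 4 rose and 4 fell in rad6Δ, against 24.8% and 24.8% of all genes tested. In bre1Δ 3 of the regulators rose and 4 fell, against 22.3% and 22.1% of all genes. In each point mutant 1 or 2 regulators rose, against 5.95% of all genes in P43L, 14.2% in P47T and 15.2% in E49K. IFH1, the coactivator at these promoters, stood at 115, 131 and 127 CPM in rad6Δ, 86.9, 97.1 and 89.6 CPM in bre1Δ, 51.2, 49.9 and 50.1 CPM in P43L, 59.0, 66.5 and 56.3 CPM in P47T and 77.9, 84.9 and 73.5 CPM in E49K, against 55.5, 54.0 and 51.8 CPM in WT. It rose by 1.204 ± 0.08 in rad6Δ, 0.76 ± 0.08 in bre1Δ and 0.55 ± 0.08 in E49K (adjusted p = 9.37e-11, 3.2e-07 and 4.76e-05). IFH1 was highest in rad6Δ, where the 81 genes summed lowest. RAP1 fell by 0.62 ± 0.09 in rad6Δ and 0.46 ± 0.09 in bre1Δ (adjusted p = 8.01e-06 and 0.000407). ABF1 fell by 1.11 ± 0.08 and 0.67 ± 0.07 in these strains (adjusted p = 1.87e-10 and 7.21e-07) and rose by 0.25 ± 0.07 in P47T (adjusted p = 0.0112). HMO1, which binds many of these promoters, fell in rad6Δ by 0.63 ± 0.08 (adjusted p = 3.22e-06). SFP1, an activator, fell by 0.27 ± 0.11 in rad6Δ and 0.29 ± 0.11 in bre1Δ, CRF1, a corepressor, rose by 0.51 ± 0.15 and 0.58 ± 0.15, and SCH9, a nutrient-signalling kinase, rose by 0.60 ± 0.10 and 0.43 ± 0.10. FHL1, the partner of Ifh1, fell in bre1Δ by 0.29 ± 0.09 (adjusted p = 0.0109). TOR1, the kinase upstream of several of these, rose by 0.21 ± 0.08 in rad6Δ, 0.30 ± 0.08 in P43L and 0.23 ± 0.08 in E49K.

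Dedicated chaperones guard single large subunit proteins on their way to the ribosome. Of 7 such genes, 4 rose in rad6Δ, 5 in bre1Δ and 4 in P47T, where 24.8%, 22.3% and 14.2% of all genes tested rose. SQT1, the chaperone of Rpl10, stood at 124, 133 and 110 CPM in rad6Δ, 91.7, 107 and 120 CPM in bre1Δ and 82.8, 88.7 and 78.7 CPM in P47T, against 58.3, 65.4 and 66.3 CPM in WT. It rose by 0.95 ± 0.11, 0.75 ± 0.11 and 0.40 ± 0.11 in these strains, and by 0.44 ± 0.11 in E49K (adjusted p = 2.72e-07, 1.44e-05, 0.00852 and 0.00381). SYO1, which escorts Rpl5 and Rpl11, rose by 0.64 ± 0.12 in rad6Δ, 0.70 ± 0.12 in bre1Δ and 0.45 ± 0.12 in P47T. RRB1, the chaperone of Rpl3, rose by 0.42 ± 0.08 in rad6Δ, 0.76 ± 0.08 in bre1Δ and 0.22 ± 0.08 in P47T. In rad6Δ RPL5 thus fell while SYO1 rose, and RPL3 stood at -0.03 ± 0.12 while RRB1 rose. PUF6, which acts on Rpl43, rose by 0.50 ± 0.09 in rad6Δ and 0.54 ± 0.09 in bre1Δ. ACL4, the chaperone of Rpl4, rose by 0.34 ± 0.10 in bre1Δ, and BCP1, that of Rpl23, by 0.23 ± 0.08 in P47T. LOC1, which partners Puf6, fell by 0.69 ± 0.13 in P43L, 0.34 ± 0.13 in P47T and 0.53 ± 0.13 in E49K (adjusted p = 0.00313, 0.0472 and 0.00389).

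The 57 small subunit genes had counts close to those of the large subunit. In rad6Δ 2 rose and 12 fell, in bre1Δ 33 and 1, in P43L 1 and 5, and in E49K 16 and 2. In P47T 39 rose, and the 1 fold change below 0 was -0.13. Their median log2 fold changes were -0.08, 0.34, -0.07, 0.39 and 0.13 in the same order. The 75 genes of 60S assembly, the factors that build and export the large subunit, had another order of strains. In rad6Δ 50 rose and 1 fell, in bre1Δ 56 and 1, in P43L 1 and 22, in P47T 20 and 2, and in E49K 14 and 4, with medians of 0.36, 0.46, -0.22, 0.12 and 0.09. With library totals in place of TMM scaling, 11 assembly genes rose and 5 fell in P47T, where their median was 0.00, and the median in E49K was 0.03. That scaling put the small subunit medians at 0.22 in bre1Δ, -0.11 in P43L and 0.07 in E49K. In rad6Δ the assembly genes were thus raised in 66.7% of cases where 2.47% of the large subunit genes rose, and in P47T 26.7% where 75.3% did. Of 67 mitochondrial ribosomal genes, 1 rose and 28 fell in rad6Δ, 4 and 18 in bre1Δ, 3 and 2 in P43L, 4 and 6 in P47T, and 1 and 15 in E49K. With library totals, 1 rose in bre1Δ, and 2 rose and 12 fell in P47T. With TMM scaling, the shares of all genes tested that rose and fell were 24.8% and 24.8% in rad6Δ and 22.3% and 22.1% in bre1Δ. They were 5.95% and 6.18% in P43L, 14.2% and 13.7% in P47T and 15.2% and 16.1% in E49K. Small subunit genes lower in rad6Δ (21.1%), mitochondrial genes lower in bre1Δ (26.9%) and assembly genes higher in E49K (18.7%) were near these shares.

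**Figure D5:**
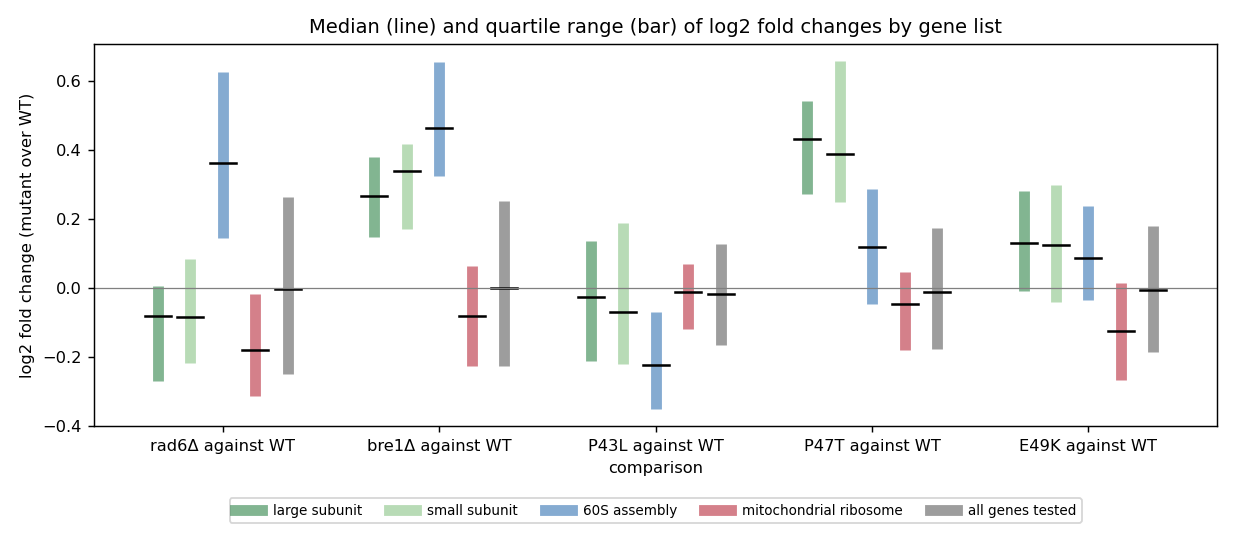
Median (line) and range from lower to upper quartile (bar) of the log2 fold changes, mutant over WT, of 4 gene lists and of all genes tested, for the 5 mutants. Large and small subunit genes move side by side, at 0.43 and 0.39 in P47T and -0.08 and -0.08 in rad6Δ, while the 60S assembly genes stand at 0.12 in P47T (0.00 with library totals) and 0.36 in rad6Δ.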

How the data were processed

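Poly(A) RNA of 18 yeast cultures (6 strains, n = 3 each) was sequenced as stranded libraries with single reads of 50 bases, per the labels' protocols. Per the submitters' processing notes, the authors used cutadapt 1.16, STAR 2.6.1b, featureCounts 1.6.3 and DESeq2 1.20 on sacCer3 (R64). How featureCounts treated strand and reads with several matches is not given in the sources used here. The deposited table holds raw counts per gene. A second deposited table holds the authors' regularized log2 values, used here only as a check (lowest correlation with log2 counts 0.993). Library totals ran from 5065845 to 11396251 counts, which sets the counting precision.

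The table lists 5746 gene IDs, of which 5633 had a locus tag and 89 a symbol found in the R64 annotation, and 24 had neither. Another 3 lines of the table were empty and not used. edgeR 4.0.16 with limma 3.58.1 in R 4.3.3 was used: filterByExpr kept 5630 genes and removed 116, TMM factors ran from 0.896 to 1.07, and robust quasi-likelihood models were fitted to all 18 libraries with 1 coefficient per strain (12 residual degrees of freedom; common biological variation 8.55% as a coefficient). P-values were two-sided and adjusted by Benjamini-Hochberg over all 5630 genes of a comparison, with a threshold of 0.05. Fold changes are log2 with a standard error derived from the fold change and the F statistic. Of the 9 comparisons, 5 were with WT and 4 between mutants. The fit was tested on simulated data. Replicates differed by more than counting noise (chi-square per degree of freedom 6.36 to 40.7), so all libraries were kept as separate samples.

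The members and lists were chosen with earlier results of these data known. Named genes were, for each mutant against WT, up to 5 called members with the highest and up to 5 with the lowest fold change whose libraries did not overlap with WT, and a list of stalk, ubiquitin-fusion, single-copy, RPL22, RPL39 and RPL41 genes, regulators and chaperones. Shares of the A copy were compared by exact permutation tests of log2(A count / B count), two-sided. Sequences, introns and unique 50-base windows came from the R64 reference genome, and motifs were searched on both strands of the 500 bases before the start codon. Alternatives were DESeq2 1.42.0, 4 other scalings, 2 other filters (none, or a mean of at least 10 CPM), fits of only the 2 strains compared, a replicate block, another denominator for the share, and leaving out each library. The scaling of the other gene lists was varied after the data had been seen.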

Additional observations from a re-analysis of the deposited data

How the results depend on the processing

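Of the 63 called values of named genes, 554 of 567 recalculations other than leaving out a library kept direction and call, 13 lost the call and 0 reversed; on leaving out 1 library, 308 of 378 kept both, 70 lost the call and 0 reversed. The labels do not say whether a replicate number marks a shared day or batch. Of 45 same-numbered pairs 13 deviated together with r above 0.1 (range -0.42 to 0.29), and 4 of 18 libraries correlated best with their own number. With 3 libraries a strain, these correlations could not decide it. With replicate as a block the genes higher in P43L numbered 1, and the calls of RPL1B in P43L (adjusted p = 0.0662), RPL28 (0.0557) and RPL37B in E49K (0.0547) were lost. DESeq2 called 9 higher in P43L and 21 higher in E49K against P43L. With library totals alone the median of all genes moved to -0.11 in bre1Δ and -0.13 in P47T; 23 members were higher in bre1Δ (median 0.14), 4 in P43L (median -0.07), 1 was lower in P47T (median 0.31), the E49K median was 0.07, and 20 were lower in E49K against P47T (median -0.21), while the median of P47T against P43L was 0.38. Open reading frames alone gave 7 higher in P43L. With only the 2 strains in the fit, 5 were higher in rad6Δ, 29 in bre1Δ and 12 in P43L, and 34 were lower in rad6Δ against bre1Δ. Of the open reading frame total the members took 8.14% in rad6Δ and 9.41% in bre1Δ, and 8.16% in P43L, 10.35% in P47T and 8.93% in E49K, against 8.50% in WT. The cause of these differences was not tested.

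Leaving out 1 library gave 20 to 44 higher in bre1Δ, 8 to 21 higher and 0 to 1 lower in E49K, 1 to 4 higher and 5 to 16 lower in P43L, and 0 to 1 lower in P47T (median 0.38 to 0.44). It gave 1 to 17 higher in E49K against P43L and 7 to 34 lower in E49K against P47T. At the lowest count of 8 higher in E49K, 597 of all genes were higher, about the same share. The P43L median ran from -0.05 to 0.01 and turned sign without P43L replicate 3. With 3 libraries a strain, small differences could not be told from replicate spread.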
